A study of Mus musculus with 2 samples.

Results

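The cell cycle and proliferation genes described here are a list of 40 genes, 15 that act before and during DNA replication (S-phase genes) and 25 that act in or are made for mitosis (mitotic genes). Members were found in the expression table by their exact gene symbol, which gave 38 of the 40 among 30649 gene names: 15 of 15 S-phase and 23 of 25 mitotic genes. The other two, Mki67 and Cdk1, are in the table under the older names Ki-67 and Cdc2a. They were read under those names and are given apart from the counts.

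Interscapular brown adipose tissue (BAT) of wild-type (WT) mice and of mice without Taf7l (Taf7l KO), both of the C57BL/6 background, was profiled by mRNA-seq. TAF7L is a paralog of TAF7, a subunit of the general transcription factor TFIID. RNA was extracted from 6 mice of each genotype and pooled in equal amounts, so that each genotype has 1 library, no difference below has a replicate check, and no test between genotypes was run. The characteristics give both libraries an age of 1 month, while the source name of the KO library gives 3 months, and an effect of genotype cannot be told apart from one of age if the latter holds.

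A dividing cell licenses its replication origins in G1 by loading the MCM helicase, copies its DNA in S phase, and then builds a spindle and separates its chromosomes in mitosis. S-phase genes are largely under E2F factors, and many mitotic genes are under the DREAM and MuvB complexes, which bind the cell cycle genes homology region (CHR), together with NF-Y, which binds CCAAT boxes. Mature brown adipocytes rarely divide, and the dividing cells of BAT in young mice include preadipocytes, endothelial cells and macrophages. In bulk tissue, fewer dividing cells and less RNA per cell cannot be told apart.

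The promoters of the list show how far the S-phase and mitotic members differ in sequence. RefSeq promoters (build GRCm38.p6, from 250 bases before to 50 after the start site) were given for 32 of the 40 members, 12 S-phase and 20 mitotic. They were searched on both strands for CHR elements (TTTGAA or TTCGAA), for CCAAT, and for E2F elements (TTTGGCGC, TTTCCCGC, TTTCGCGC or TTTGCCGC). Matches that overlap were counted separately. Shown here are the S-phase member with 3 E2F elements (Mcm6), the member with the highest expression (Pcna), the mitotic member with the highest expression (Cenpa) and the single mitotic member with an E2F element (Cdk1), 5′ to 3′ on the strand of the gene. Every matched element is in capitals.
Mcm6: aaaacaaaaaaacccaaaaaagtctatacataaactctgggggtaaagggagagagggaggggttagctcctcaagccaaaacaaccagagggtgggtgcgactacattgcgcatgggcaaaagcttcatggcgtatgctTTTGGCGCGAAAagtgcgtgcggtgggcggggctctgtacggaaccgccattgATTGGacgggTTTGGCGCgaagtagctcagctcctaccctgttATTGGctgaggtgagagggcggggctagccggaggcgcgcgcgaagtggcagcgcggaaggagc
Pcna: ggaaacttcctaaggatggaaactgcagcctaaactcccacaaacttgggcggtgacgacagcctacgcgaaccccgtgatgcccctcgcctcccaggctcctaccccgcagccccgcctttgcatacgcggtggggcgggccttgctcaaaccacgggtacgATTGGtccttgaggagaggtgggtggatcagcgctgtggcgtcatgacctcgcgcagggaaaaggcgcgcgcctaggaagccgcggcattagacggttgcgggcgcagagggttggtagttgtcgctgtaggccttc
Cenpa: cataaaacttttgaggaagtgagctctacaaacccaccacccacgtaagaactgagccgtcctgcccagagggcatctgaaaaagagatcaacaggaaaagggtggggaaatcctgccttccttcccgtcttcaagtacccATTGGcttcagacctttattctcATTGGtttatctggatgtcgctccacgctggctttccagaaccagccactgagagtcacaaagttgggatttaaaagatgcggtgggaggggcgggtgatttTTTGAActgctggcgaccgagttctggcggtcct
Cdk1: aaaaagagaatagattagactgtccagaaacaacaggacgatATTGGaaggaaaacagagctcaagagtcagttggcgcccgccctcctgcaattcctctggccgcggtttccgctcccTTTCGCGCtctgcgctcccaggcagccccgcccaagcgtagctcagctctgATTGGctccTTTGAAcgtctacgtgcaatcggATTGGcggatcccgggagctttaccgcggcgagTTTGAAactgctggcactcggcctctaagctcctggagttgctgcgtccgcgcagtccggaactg

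The Mcm6 promoter is at chr1:128359656-128359955 on the minus strand, with E2F elements whose first bases lie at -110, -106 and -47 from the start site and CCAAT boxes at -57 and -14. The first of these E2F elements overlap each other. For Pcna (chr2:132253131-132253430, minus strand) the only match was a CCAAT box at -87. The Cenpa promoter (chr5:30666636-30666935, plus strand) holds CCAAT boxes at -109 and -86 and a CHR element at 16 bases after the start site. For Cdk1 (chr10:69352863-69353162, minus strand) the E2F element lies at -131, the CCAAT boxes at -208, -80 and -48, and the CHR elements at -71 and -15.

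An E2F element was present in 6 of 12 S-phase members (50.0%), namely Cdc6, Cdt1, Mcm3, Mcm5, Mcm6 and Mcm7, and in 1 of 20 mitotic members, against 2.61% of all 27025 genes with a promoter. For the CHR element the order was the other way: 16 of 20 mitotic members held one, against 2 of 12 S-phase members (Mcm2 and Mcm7) and 21.7% of all genes. In 15 of those 16 mitotic members a CHR element began within 40 bases of the start site. CCAAT boxes were in 18 of 20 mitotic and 8 of 12 S-phase members, against 41.1% of all genes, and every member with a CHR element also held a CCAAT box, a pair found in 8.61% of all genes. Of the S-phase members Tyms and Ccne1, and of the mitotic members Birc5 and Nusap1, had no match. A match of letters is a description of the sequence and does not show that a factor binds there.

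**Figure D1:**
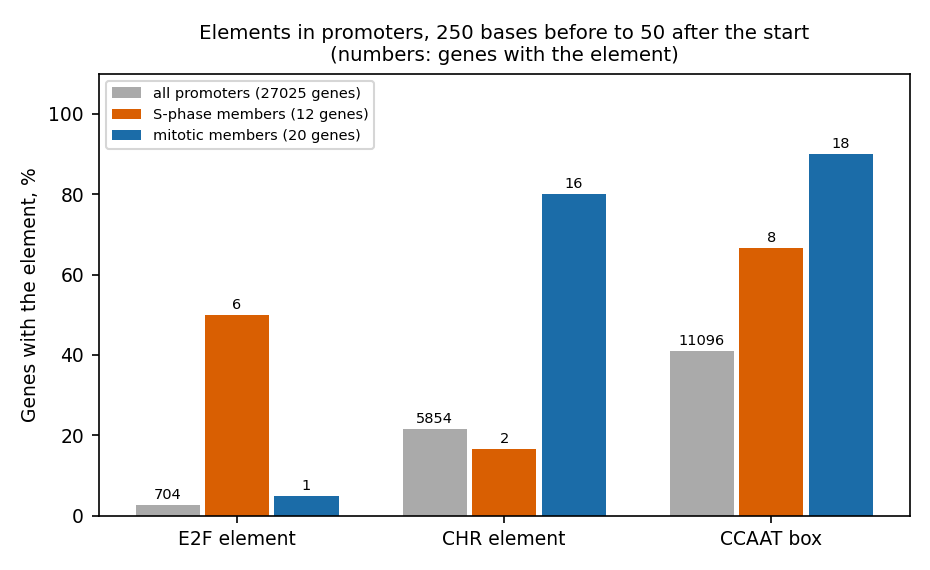
Share of genes (%) with each promoter element, for all genes with a RefSeq promoter (grey), S-phase members (orange) and mitotic members (blue), with the number of genes above each bar. E2F elements were in 6 of 12 S-phase members, and CHR elements in 16 of 20 mitotic members.

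Expression is given in FPKM (fragments scaled by transcript length in kilobases and by the mapped reads of the library), summed over the rows of a gene. It is a level per length, so that genes can be set beside each other. Most members were near the floor of the data. In WT BAT 7 of 15 S-phase and 3 of 23 mitotic members were at 1 FPKM or more, and in KO BAT the numbers were again 7 and 3. No member was at 0 in either library. The median level of the S-phase members was 0.972 FPKM in WT and 0.994 in KO, and that of the mitotic members 0.347 and 0.302. The median over all genes compared, the 12171 of 30649 that reached 1 FPKM in a library, was 5.79 and 6.19 FPKM. The medians of the members have no such filter, so the sets are unlike and the gap between them is widened.

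Summed FPKM of the S-phase members was 81.6 in WT and 58.7 in KO BAT, a KO/WT ratio of 0.719, and that of the mitotic members 11.3 and 10.2, a ratio of 0.902. S-phase expression was thus 7.24 times mitotic expression in WT and 5.77 times in KO. The S-phase sum is mainly 4 genes: Pcna, Gmnn, Tyms and Mcm7 made up 89.7% of it in WT and 83.6% in KO. Each of these was lower in KO. Among the mitotic members, Cenpa, Ccna2 and Ube2c held 49.2% and 43.2% of the sum.

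**Figure D2:**
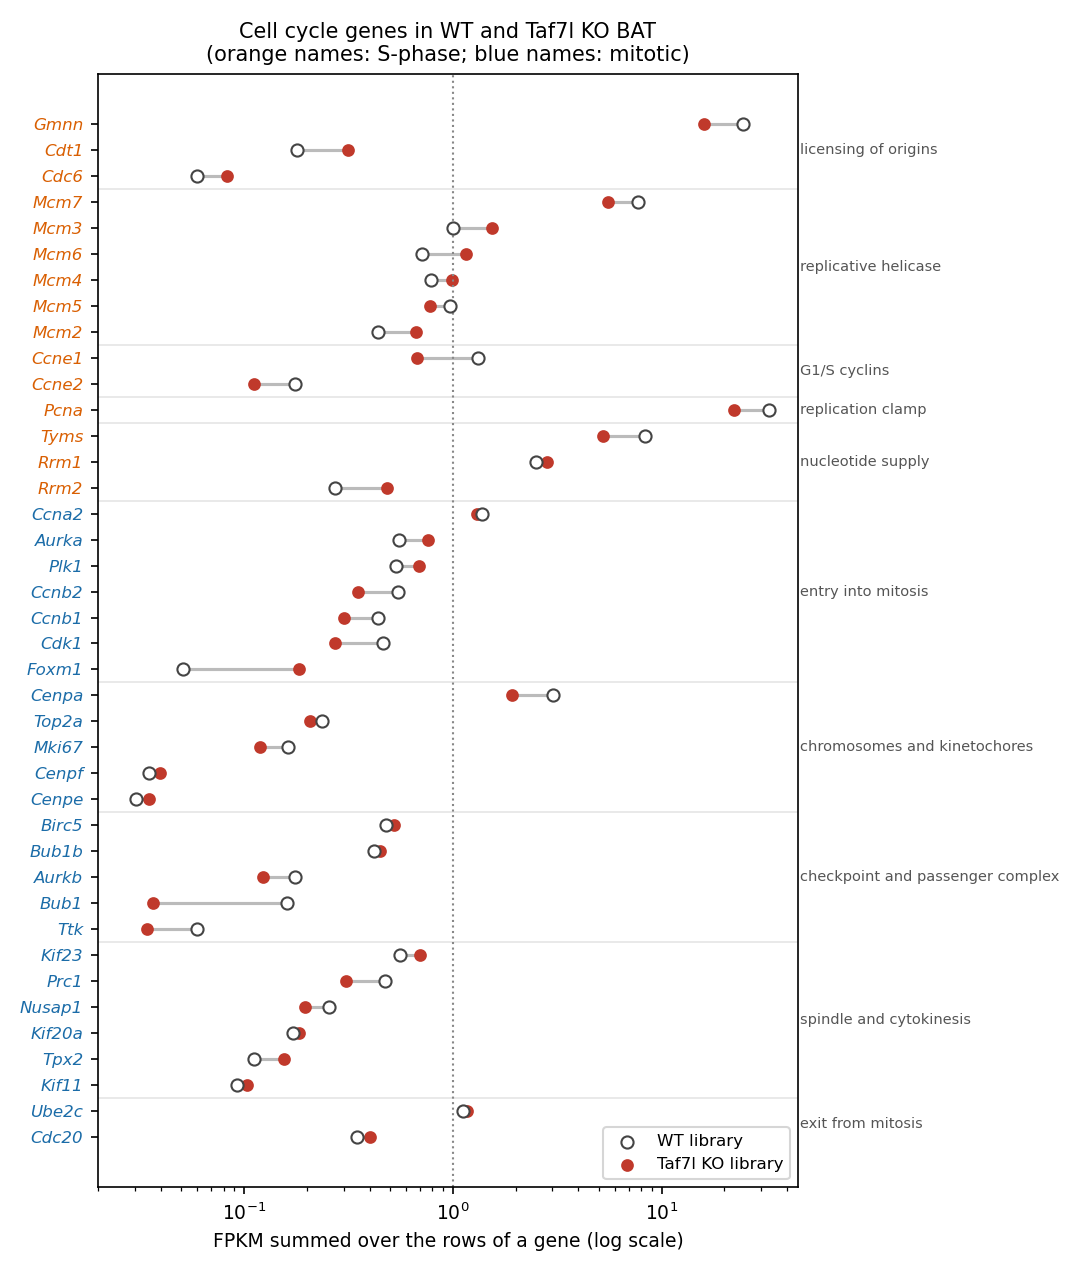
FPKM of all 40 members on a log axis in the WT (open) and Taf7l KO (filled red) libraries, grouped by role, with a dotted line at 1 FPKM. Pcna, at 32.6 and 22.2 FPKM, and Gmnn stand far above the other members, and most mitotic members lie between 0.0303 and 1 FPKM.

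For the comparison, the 12171 genes that reached 1 FPKM in WT, in KO or in both were used, and the difference is log2((KO + 0.1)/(WT + 0.1)), which understates the change of low genes. Of the members, 11 passed, 8 S-phase and 3 mitotic. In KO BAT 4 of these 11 (36.4%) were at least 1.5-fold lower, against 12.7% of all genes compared, and 1 (9.09%) was at least 1.5-fold higher, against 16.5%. Among the 9592 genes with a mean FPKM in the range of these members, the shares were 11.1% lower and 17.2% higher. None of the 11 members compared reached 3-fold, which 0.403% of all genes compared did as lower and 2.05% as higher. The lower members were Ccne1, Tyms, Cenpa and Gmnn, the higher one was Mcm6, and Mcm3, Pcna, Mcm7, Rrm1, Ccna2 and Ube2c were within 1.5-fold. Ccne1 passed the level filter only through WT and Mcm6 only through KO, so that these members could pass only with a difference in that direction. Of the 9 members at 1 FPKM or more in both libraries, none was 1.5-fold higher by this difference and Tyms, Cenpa and Gmnn were lower. Mcm3 was inside 1.5-fold only through the added 0.1 FPKM, as its plain KO/WT ratio was 1.54. Over the 11031 genes at that level in both, 13.6% were higher and 11.7% lower.

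The median log2 ratio was -0.51 over the 8 S-phase members compared and -0.08 over the 3 mitotic ones, beside 0.01 over all genes compared. The mitotic value is that of Ccna2, a cyclin of both S phase and G2. With members of intermediate timing (Ccna2, Gmnn, Top2a, Mki67 and Foxm1) left out, the medians were -0.47 and -0.29, and the S-phase minus mitotic difference was -0.17 in place of -0.43. Over all members found, whatever their level, it was 0.17 for the 15 S-phase and 0.05 for the 23 mitotic genes, a difference of 0.12, and 21 of 38 members were higher in KO. The lower S-phase median therefore held for the well-expressed S-phase genes and not for the list as a whole. The share higher by any amount was not counted over all genes, so 21 of 38 has no background. Past 1.5-fold, 3 of the 38 were higher and 5 lower. Of the 22499 genes above 0 in a library, 14.3% were higher and 10.6% lower. Without Pcna, Gmnn, Tyms and Mcm7, which were left out after their values were seen, the median over the S-phase members compared was 0.37 and the log2 ratio of summed S-phase FPKM 0.20.

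**Figure D3:**
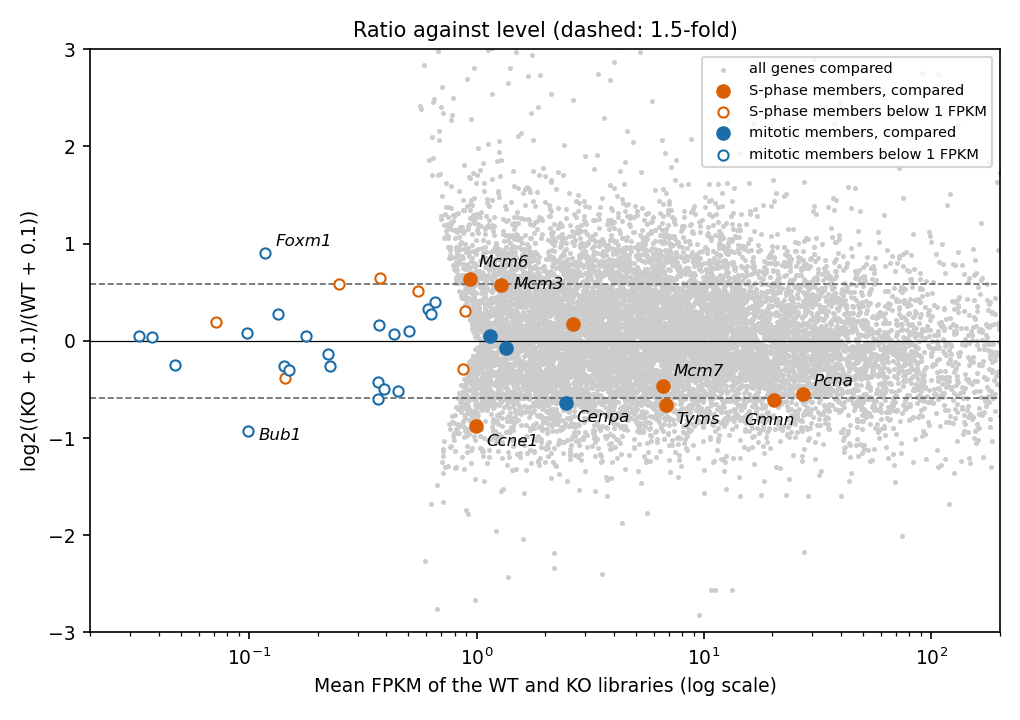
The log2 ratio against mean FPKM (log axis) for all genes compared (grey) and the 38 members found by symbol and the 2 found by older name, S-phase in orange and mitotic in blue, open where both libraries are below 1 FPKM. Members above 5 FPKM (Pcna, Gmnn, Tyms and Mcm7) all lie below 0, while members near or below 1 FPKM lie on both sides.

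Depth was estimated from the steps between the FPKM of single-exon genes at low levels, at 25957763 mapped reads for WT and 78513349 for KO, a ratio of 3.02. The KO estimate is above the read number stated in the labels and the WT estimate below it, which bears on the read numbers and interval widths given here. With these depths and transcript lengths, read numbers could be estimated for 28 of the 38 members, and an exact binomial 95% interval was put on each KO/WT ratio. The intervals cover counting error only, not differences between mice, pools or libraries. They lay below 1 for Mcm7, Pcna, Gmnn, Ccne1 and Cenpa, above 1 for Mcm2, Mcm3 and Foxm1, and held 1 for the other 20. Among the mitotic members 14 of 16 intervals held 1, so that at this depth a difference between the libraries was not detectable for most of them.

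Among the genes of origin licensing, Gmnn, which encodes geminin, the inhibitor that binds CDT1 and keeps origins from being licensed again (chr13:24751845-24761923, GRCm38), was at 24.6 FPKM in WT and 16.0 in KO (log2 ratio -0.61, ratio of reads 0.652, interval 0.586 to 0.725, 528 and 1041 reads). Its level stood at percentile 76.8 of the genes compared. Cdt1, the loader of the MCM helicase that geminin holds back, was at 0.179 and 0.317 FPKM (log2 ratio 0.58), with a read ratio interval of 0.875 to 4.17 that holds 1. Geminin RNA was therefore 137 times Cdt1 RNA in WT and 50.6 times in KO. Cdc6, the other helicase loader, was at 0.0596 and 0.0826 FPKM.

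The 6 subunits of the MCM2-7 helicase, which are needed in equal number in the complex, were not at equal RNA levels. Mcm7 was at 7.70 FPKM in WT and 5.53 in KO, 9.83 and 5.57 times the median of the other subunits, which lay between 0.437 and 1.00 FPKM in WT and between 0.666 and 1.55 in KO. It was lower in KO, with a log2 ratio of -0.47 and a read ratio interval of 0.616 to 0.841. The transcript matched to the Mcm7 row has 1351 bases, and those matched to the other subunits have 2910 to 3589. What part this has in the unequal levels was not tested. Mcm3 was higher in KO (1.00 and 1.55 FPKM, log2 ratio 0.58, interval 1.19 to 2.02). With 0.1 FPKM added it was just inside the 1.5-fold bound, while its plain KO/WT ratio was 1.54. Mcm6 was at 0.710 and 1.16 FPKM (log2 ratio 0.63), with no read estimate. Mcm2 went the same way, from 0.437 in WT to 0.666 in KO (interval 1.06 to 2.25). For Mcm4 (0.784 and 0.994 FPKM) and Mcm5 (0.972 and 0.777 FPKM) the intervals held 1. Of the subunits, Mcm7 and Mcm5 were thus lower in KO and the other 4 higher.

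Cyclins E1 and E2 activate CDK2 at the start of S phase. Ccne1 (chr7:38097984-38107534) was the compared member with the lowest KO/WT ratio, at 1.32 FPKM in WT and 0.674 in KO (log2 ratio -0.87, interval 0.366 to 0.721, 60 and 93 reads). Ccne2 was at 0.176 and 0.111 FPKM, with 13 and 25 reads and an interval that holds 1. In both libraries Ccne1 was the more abundant, by 7.49 and 6.05 times.

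Pcna, the sliding clamp of the replicative polymerases, which also serves in DNA repair (chr2:132249162-132253314), had the highest level of all members. It was at 32.6 FPKM in WT and 22.2 in KO, percentile 81.2 of the genes compared, with a log2 ratio of -0.55. From 895 and 1850 reads the KO/WT ratio was 0.683, with an interval of 0.631 to 0.741, the narrowest among the members.

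Among the genes of nucleotide supply, Tyms, the thymidylate synthase, was at 8.35 FPKM in WT and 5.24 in KO (log2 ratio -0.66). It has 4 rows in the table, each lower in KO, and no read estimate. Rrm1, the large subunit of ribonucleotide reductase, was nearly level, at 2.50 and 2.83 FPKM, with an interval that holds 1. Rrm2, the small subunit that cells make mainly in S phase, was at 0.272 and 0.482 FPKM (interval 0.993 to 3.39). Rrm1 exceeded Rrm2 by 9.19 times in WT and 5.86 times in KO.

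The S-phase members thus formed a set of well-expressed genes that were lower in KO and a set of low genes of which most were higher. This split was made after the values were seen. Among the low genes, only the intervals of Mcm2 and Mcm3 lay above 1, and that of Ccne1 lay below. Over the 12 S-phase members with estimates, reads summed to 2262 in WT and 5450 in KO, a ratio of 0.797 (0.758 to 0.837). Over 16 mitotic members the sums were 395 and 1105, a ratio of 0.925 with an interval of 0.824 to 1.04. Pcna, Gmnn and Mcm7 hold most of the S-phase reads, and Tyms has no estimate. These genes, all lower in KO, were also left out after their values were seen. The other 9 S-phase members then summed to 598 and 2035 reads, a ratio of 1.13 (1.03 to 1.23).

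**Figure D4:**
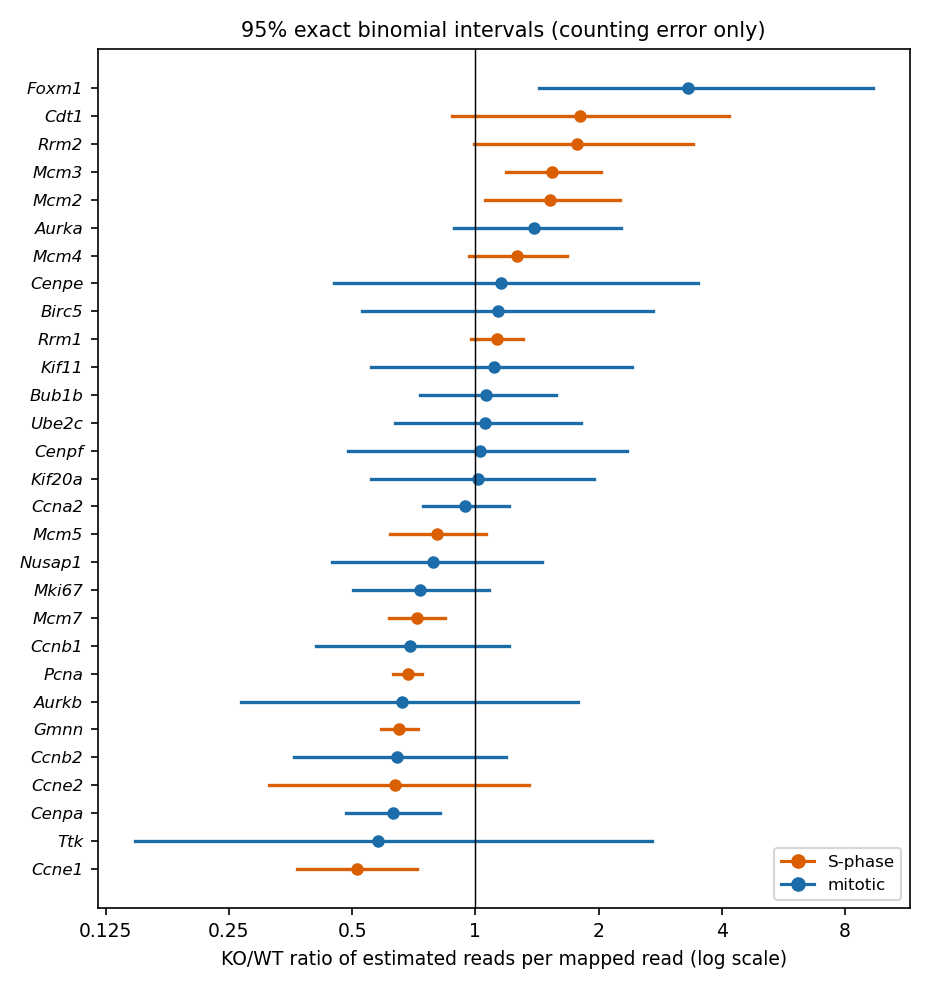
KO/WT ratio of estimated reads (points, log axis) with exact binomial 95% intervals (lines, counting error only) for the 28 members with an estimate and Mki67. The intervals of Pcna, Gmnn, Mcm7, Ccne1 and Cenpa lie below 1, and those of Foxm1, Mcm3 and Mcm2 above 1.

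Of the genes that bring cells into mitosis, Ccna2, the cyclin of S phase and G2, was the highest, at 1.39 FPKM in WT and 1.31 in KO (log2 ratio -0.08, interval 0.745 to 1.21). The B-type cyclins, which drive mitotic entry with CDK1, were both lower in KO: Ccnb1 was at 0.438 and 0.302 FPKM and Ccnb2 at 0.546 and 0.351. Cdk1 itself, read under the name Cdc2a, was at 0.463 and 0.273 FPKM. The kinases Plk1 (0.532 and 0.692 FPKM) and Aurka (0.553 and 0.760 FPKM), which act on centrosomes and the spindle, were higher in KO. For Plk1 the difference came from a row spanning 36835 bp (0.411 and 0.569 FPKM). The Plk1 row spanning 10439 bp was level (0.121 and 0.123 FPKM). None of the B-type cyclins or Aurka had an interval that left out 1, and Cdk1 and Plk1 had no read estimate.

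Foxm1 encodes the transcription factor that activates many mitotic genes (chr6:128362967-128376146). It was at 0.0511 FPKM in WT and 0.184 in KO, which is 6 and 60 estimated reads, a ratio of 3.31 with an interval of 1.43 to 9.37. Its level was below 1 FPKM in both libraries and it was not among the genes compared.

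On chromosomes and kinetochores, Cenpa, the histone H3 variant that marks centromeres (chr5:30666777-30674830), was the mitotic member with the highest level, at 3.03 FPKM in WT and 1.92 in KO. Its log2 ratio was -0.64, with a read ratio of 0.628 and an interval of 0.484 to 0.820 from 90 and 171 reads. Mki67, the proliferation antigen that coats mitotic chromosomes, was at 0.164 FPKM in WT and 0.120 in KO, 42 and 93 reads, with an interval of 0.503 to 1.08. Top2a, which untangles sister chromatids, was at 0.236 and 0.207 FPKM. The kinetochore genes Cenpe and Cenpf were among the lowest members, between 0.0303 and 0.0395 FPKM.

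Genes of the spindle checkpoint and the chromosomal passenger complex were all below 1 FPKM. Bub1, a checkpoint kinase, was at 0.161 FPKM in WT and 0.0369 in KO (log2 ratio -0.93), the largest difference toward lower among the members, with no read estimate. Its partner Bub1b was at 0.422 and 0.447 FPKM. Ttk, the kinase at the top of the checkpoint, was at 0.0596 and 0.0344 FPKM, which is 4 and 7 reads. Of the passenger complex, the kinase Aurkb was at 0.175 and 0.123 FPKM and survivin (Birc5) at 0.481 and 0.525. The intervals of Bub1b, Ttk, Aurkb and Birc5 held 1.

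For spindle and cytokinesis, 6 members summed to 1.67 FPKM in WT and 1.64 in KO. Kif23, a motor of the central spindle, was the highest (0.561 and 0.697 FPKM), followed by its bundling partner Prc1 (0.473 and 0.307 FPKM). Nusap1, which stabilises spindle microtubules, was at 0.256 and 0.197 FPKM, and Tpx2, the activator of Aurora A, at 0.112 and 0.156. The kinesins Kif20a (0.173 and 0.183 FPKM) and Kif11 (0.0925 and 0.103 FPKM) were nearly level. Read estimates could be made for Nusap1, Kif20a and Kif11, and their intervals held 1.

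Exit from mitosis is set by the anaphase-promoting complex. Its activator Cdc20 was at 0.347 FPKM in WT and 0.400 in KO. Its ubiquitin-conjugating enzyme Ube2c was at 1.12 and 1.16 FPKM, with a log2 ratio of 0.05 and an interval of 0.638 to 1.81.

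The wider pathway was described with further lists. Of 59 other S-phase genes, 34 were compared, of which 10 (29.4%) were at least 1.5-fold lower, against 12.7% of all genes compared, and 1 higher (Timeless, 2.94% against 16.5%), with a median log2 ratio of -0.31. Summed FPKM of this list was 256 in WT and 191 in KO. Its highest genes were Rpa3, a subunit of the single-strand binding protein RPA (37.8 and 16.0 FPKM), Orc3, a subunit of the origin recognition complex (31.1 and 24.5 FPKM), and Slbp, the histone mRNA binding protein (20.4 and 19.0 FPKM). The lower genes were Rpa3, Orc2, Orc4, Orc5, Gins2, Gins4, Rfc4, Uhrf1, Usp1 and Atad2. Uhrf1 and Atad2 passed the level filter only through WT and could count only as lower. Against genes of like length and GC content, 7 were lower and none higher: Timeless, Orc2, Orc5, Rfc4, Usp1 and Atad2 were inside 1.5-fold, and Pola2 and Fen1 were past it. Over the 8403 genes with both properties, 8.60% were then lower and 10.9% higher. Of the 7 lower S-phase genes, Fen1 (1.26 and 0.934 FPKM) and Uhrf1 had passed the level filter only through WT. Among 15 compared of 63 other mitotic genes, 4 (26.7%) were lower (Cks2, Zwilch, Mad2l1 and Lin9) and 2 (13.3%) higher (Ncapd2 and Cdc25b), with a median of -0.25. Lin9 passed only through WT, and none of these 6 stayed past 1.5-fold against genes of like length and GC content. The highest of them were Pttg1, which encodes securin (82.6 and 80.8 FPKM), the importin Kpna2 (8.04 and 7.70 FPKM) and Cks2, a CDK-binding subunit (5.45 and 3.52 FPKM). Genes named from these counts other than the highest were chosen after their values were seen.

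A list of 8 G1 genes holds the D-type cyclins, their kinases, Cdk2, Cdc25a and Myc. Of the 7 compared, 3 (42.9%) were at least 1.5-fold higher, against 16.5% of all genes compared, and none lower, against 12.7%, with a median log2 ratio of 0.46. Cdk4 was nearly level at 29.3 FPKM in WT and 30.9 in KO. Ccnd3, a D-type cyclin, was at 13.6 and 25.4 FPKM (interval of the read ratio 1.72 to 2.04), and Cdk2, the partner of cyclin E, was at 7.92 and 5.85 FPKM (0.659 to 0.826). The other higher genes were the D-type cyclin Ccnd2 and Myc, a transcription factor that is neither cyclin nor kinase. Among 22 brakes of the cycle, such as CDK inhibitors, 17 were compared, 2 higher and 2 lower (11.8% each), with a median of 0.01. The CDK inhibitors Cdkn2c (64.6 and 65.0 FPKM) and Cdkn1c (34.3 and 47.5 FPKM) and cyclin G1, Ccng1 (44.2 and 25.6 FPKM), were the highest of these.

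Transcript properties moved with the ratio. Over 8403 genes with a length and GC content, the median log2 ratio was -0.35 in the lowest of 5 bins of GC content with equal numbers of genes and 0.36 in the highest, and -0.11 in the shortest and 0.10 in the longest of 5 bins of length. The members lower in KO had a median transcript length of 2000 bases and GC content of 46.1%, and those higher in KO 3371 bases and 49.4%. For the S-phase members alone, the median lengths were 1518 bases for those lower and 3201 for those higher. Against genes of like length and GC content, the log2 ratio of Ccne1 was -0.94, of Tyms -0.57, of Cenpa -0.53, of Pcna -0.44 and of Gmnn -0.43. Of the lower members Ccne1 alone stayed past 1.5-fold, 1 of the 11 compared, against 8.60% of the 8403 genes. Mcm6, at 0.66, was the 1 higher member past it, against 10.9%, and Mcm3 was at 0.39. Ccne1 had passed the level filter only through WT and Mcm6 only through KO. What part these properties have in the differences was not tested.

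**Figure D5:**
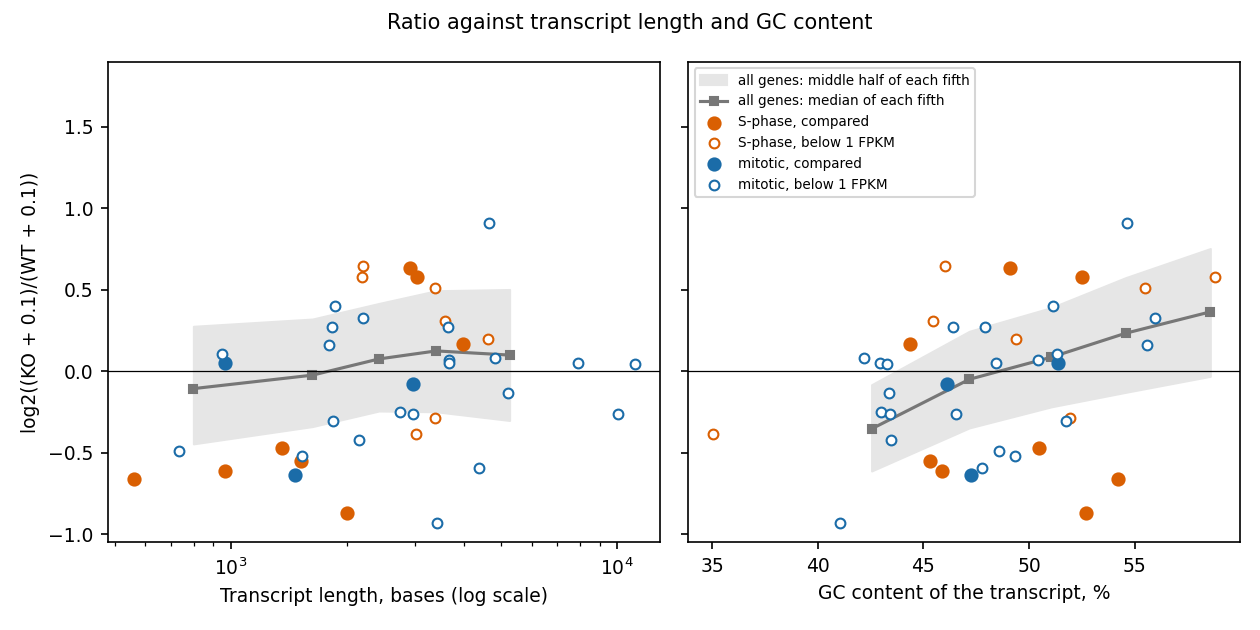
The log2 ratio of the 40 members against transcript length in bases (left, log axis) and GC content in percent (right), with the median (grey squares) and interquartile range (grey band) of all genes in 5 bins of equal size. The median over all genes goes from -0.35 at low to 0.36 at high GC content, and the compared S-phase members below 0 include short transcripts.

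Markers of other cells were read in the same libraries. All 8 skeletal muscle fibre markers, led by Acta1, Tnnc2 and Tnnt3, were at least 3-fold higher in KO, against 2.05% of all genes compared. Their sums were 65.6 FPKM in WT and 1434 in KO. Of 8 brown adipocyte markers, led by Fabp4, Cox8b and Ucp1, 6 (75%) were at least 1.5-fold lower, against 12.7% of all genes compared. Their sums were 32144 and 16700. Against genes of like length and GC content, 3 of these 8 (Ucp1, Elovl3 and Cox8b) stayed past 1.5-fold, as did all 8 muscle fibre markers. Of 4 muscle satellite cell markers, led by Myod1, Myog and Pax7, none reached 1 FPKM (sums 0.0301 and 0.350), and Pax7, Myf5 and Myod1 were at 0 in WT. Fibroblast and progenitor markers (7, led by Ly6a, Dcn and Col3a1) summed to 429 and 399 FPKM, with Col1a1 higher and Dcn lower. Macrophage markers (7 names, led by C1qb, C1qa and Cd68) summed to 74.2 and 75.4, with Csf1r and Cd68 higher. Adgre1 and Emr1 on this list name the same gene (2.49 and 2.22 FPKM), which these sums count under both names. Endothelial markers (5, led by Cdh5, Pecam1 and Emcn) summed to 93.3 and 105, and lymphocyte markers (8, led by Cd3g, Ptprc and Cd79a) to 5.07 and 4.77. No other compared marker of these 4 lists was past 1.5-fold. Against genes of like length and GC content, Dcn (-0.23) and Csf1r (0.37) were inside 1.5-fold, and Col1a1 and Cd68 stayed past it. Of the erythroid markers, led by Hbb-b1, Alas2 and Epor, Hbb-b1 was at 3876 and 2038 FPKM. The part of these cells in the levels of the cell cycle genes was not tested. Taf7l itself was at 0.0222 and 0.00734 FPKM, about 1 read in each library, which does not check the genotype.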

How the data were processed

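One pooled mRNA-seq library each of WT and Taf7l KO BAT was analysed. The authors mapped 50 bp reads with TopHat 1.4.0 and made the deposited FPKM per UCSC transcript with cufflinks 1.3.0 (option max-mle-iterations 1). Bowtie and mm10 are further names in the processing notes of the submitters. The table's coordinates are not those of GRCm38: 314 of 7067 single-row genes start within 1000 bp of their GRCm38 position. Gene positions given are those of GENCODE M21 (GRCm38).

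FPKM were summed per gene name. Genes that reached 1 FPKM in either library were compared with a pseudocount of 0.1 FPKM, and 1.5-fold and 3-fold differences were counted. With 1 library per genotype no p-value was computed, and each list is described by its counts and median beside those of all genes. The members and lists were chosen with earlier results of these data known.

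Reads were estimated as FPKM times depth times effective length, for fragments of 200 bp (SD 80). Depth came from 867 genes with 1 exon and 1 row: among low values, 86.3% of 73 (WT) and 85.7% of 56 (KO) were within 0.05 of a whole number of reads. Length was the mean over GENCODE transcripts of the gene whose span was within 30 bp of that of the row. Where there was none, protein-coding ones within 300 bp served, their length moved by the difference in span, a step added after the data were seen. For length and GC content as properties, the transcript with the span nearest to that of the highest row was taken. These lengths can differ, as for Mcm7 (1406 bases for reads, 1351 as a property). Genes were left without an estimate where candidate lengths differed by more than 1.1 times or over 5% of the FPKM was unmatched.

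All members, the 3 genes with the highest mean FPKM of each other list, and Taf7l are named. Other names were chosen after their values were seen. Other pseudocounts, filters, scalings, a length and GC correction in 5 by 5 bins and leaving out single genes were tried. Scripts ran under Python 3.11.15, with tables in pandas 2.3.3 and numpy 2.4.6, intervals from scipy 1.17.1 and plots from matplotlib 3.10.9. ChIP-seq, chromosome conformation and RT-qPCR data of the study were not used here.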

Additional observations from a re-analysis of the deposited data

How the results depend on the processing

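No paired analysis was possible because WT and KO were sequenced as 1 pooled library each. The number of members compared was 38 with no filter on low values, 4 with a filter of 5 FPKM and 7 without Pcna, Gmnn, Tyms and Mcm7. Members at least 1.5-fold higher in KO numbered 0 with a pseudocount of 1 FPKM, with a filter on the mean, with a filter of 5 FPKM and with the highest row of each gene, 2 with a pseudocount of 0.01 FPKM and 3 with no filter. With no filter 14.3% of the 22499 genes above 0 in a library were higher. Members at least 1.5-fold lower numbered 1 with a pseudocount of 1 FPKM and with the correction for length and GC content, and 2 with a filter of 5 FPKM and without the 4 highest genes. With that correction 8.60% of 8403 genes were lower. The S-phase median was 0.17 with no filter and 0.37 without the 4 highest genes. The S-phase minus mitotic median, -0.43 as reported, was 0.12 with no filter, -0.17 without members of intermediate timing, -0.19 with the highest row of each gene and 0.45 without the 4 highest genes. It had the reported sign in 10 of 12 alternatives. Some of these could hardly change a sign, here or for the S-phase median below. Scaling moves both medians nearly alike. Leaving out rows that span under 200 bp or adding the older names changed no member compared. Without these 4 genes, all lower in KO, the S-phase values had to be higher, and the log2 ratio of summed S-phase FPKM was 0.20. The mitotic sum, -0.15 as reported, was -0.34 with a filter on the mean, -0.26 with the length and GC correction and 0.0024 without its highest gene, Cenpa. Leaving out the 4 highest genes and adding the members under older names were chosen after seeing the data. With a filter of 5 FPKM no mitotic member is left, so no mitotic value was had there. Over all alternatives the S-phase median ranged from -0.58 to 0.37 and had the reported sign in 11 of 13, and the mitotic median ranged from -0.36 with the highest row of each gene to 0.05 with no filter. The cause of these shifts was not tested beyond what each construction shows. Depth limits the mitotic members, whose WT read estimates ran from 4 to 94.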

Other observations

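Subunits of the anaphase-promoting complex, the ubiquitin ligase that ends mitosis, were expressed well above the mitotic genes. All 13 were compared, with a median log2 ratio of -0.15, 1 at least 1.5-fold higher (Anapc5) and 1 lower (Anapc10), 7.69% each against 16.5% and 12.7% of all genes compared. Anapc13 was at 308 FPKM in WT and 230 in KO, Anapc5 at 154 and 278 over 9 rows, and Cdc16 at 34.3 and 23.6.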
